A study of Mus musculus with 14 samples.

Results

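The SOCS family of cytokine feedback genes was followed in cultured mouse Th2 cells, which drive allergic inflammation and immunity to worms. The family comprises Cish and Socs1 to Socs7. These 8 genes were picked by their Ensembl identifiers among the 22598 genes of every count table, and all 8 were among the 11591 genes abundant enough to be tested.

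SOCS proteins are intracellular brakes on cytokine signalling. A cytokine receptor activates JAK kinases, which phosphorylate STAT transcription factors, and the STATs switch on SOCS genes whose products then block the receptor or the kinase. Each protein carries an SH2 domain, which binds phosphorylated tyrosines, and a SOCS box, which recruits elongins and a cullin to mark bound proteins for destruction. In helper T cells, CISH is known as a feedback regulator of STAT5 signalling, SOCS1 of interferon and common gamma chain cytokines, and SOCS3 of cytokines that use the gp130 receptor chain.

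Naive CD4 T cells sorted from C57BL/6J mouse spleens were activated and polarized in vitro, and total RNA was sequenced in paired ends. The day 7 cultures gave 4 wild-type and 4 knockout libraries, and the day 14 cultures gave 3 of each genotype. The knockout label, Ago134, stands for the loss of the Argonaute genes Ago1, Ago3 and Ago4, whose proteins bind small RNAs. The series text describes wild-type and knockout mice as littermates, names the later time both as day 14 and as 15 days, and gives no promoter or Cre for the deletion. All 4 groups carried the same strain, sorting and polarization labels.

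Total counts ran from 23326248 to 35803197 per library. As a check of the genotype labels, Ago1 had 128 to 141 reads in the wild-type libraries of day 7 and 67 to 100 in those of day 14, against 0 in every knockout library of day 7 and 0, 0 and 2 in those of day 14. Nothing in the labels tells whether replicate libraries stem from different mice or cultures, so each p-value reflects just the variation among these samples, part of which may be technical. Lane identifiers in the names of the deposited tables fall into 2 series, called runs here. All knockout day 7 libraries belonged to run 1 and all knockout day 14 libraries to run 2, while both wild-type groups had libraries in each. The defining T cell markers were abundant in every library (4399 to 7471 CPM summed over 8 genes, where CPM is the count scaled to library size by TMM). Summed markers of B cells stayed at or below 4.21 CPM and those of erythroid cells at or below 1.42 CPM. Those of myeloid cells reached 30.04 CPM, although Itgam and Itgax of that list had no read in any library. Sums reached 129.8 CPM for mast cells and basophils, 165 CPM for Th1, CD8 and NK cells and 168 CPM for regulatory T cells. Wild-type library 3 of day 14 and knockout library 4 of day 7 stood apart from their groups in several genes below, and several results are also given without them. Knockout library 1 of day 14 was the lowest of its group for Cish, Socs1 and Socs3.

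The promoters of the 3 members that carry most of the family's transcripts are shown first, because STAT proteins act on such sequences. They were taken from RefSeq (GRCm38.p6) and carry motif matches in capitals. Each runs 5′ to 3′ on the strand of the gene, from 250 bases before to 50 bases after the start used for its window. The Cish and Socs3 windows lie inside the GENCODE genes, which start at chr9:107296026 and chr11:117970047. For these 2 genes the start used is therefore further downstream. Motif distances count from the start used for each window. The table held promoters for 4 of the 8 members, Cish, Socs1, Socs3 and Socs4.
Cish, chr9:107296409-107296708, plus strand: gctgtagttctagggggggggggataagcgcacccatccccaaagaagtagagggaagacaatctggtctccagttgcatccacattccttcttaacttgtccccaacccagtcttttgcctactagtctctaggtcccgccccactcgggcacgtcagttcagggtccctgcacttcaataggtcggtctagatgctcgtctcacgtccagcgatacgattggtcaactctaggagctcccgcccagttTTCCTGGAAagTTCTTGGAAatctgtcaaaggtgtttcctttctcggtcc
Socs1, chr16:10785487-10785786, minus strand: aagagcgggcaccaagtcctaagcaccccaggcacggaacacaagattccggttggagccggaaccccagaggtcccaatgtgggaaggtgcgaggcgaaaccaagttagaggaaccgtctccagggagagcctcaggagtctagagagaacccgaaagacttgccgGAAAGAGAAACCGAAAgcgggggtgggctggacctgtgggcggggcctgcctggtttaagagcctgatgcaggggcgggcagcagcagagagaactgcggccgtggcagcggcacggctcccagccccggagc
Socs3, chr11:117969317-117969616, minus strand: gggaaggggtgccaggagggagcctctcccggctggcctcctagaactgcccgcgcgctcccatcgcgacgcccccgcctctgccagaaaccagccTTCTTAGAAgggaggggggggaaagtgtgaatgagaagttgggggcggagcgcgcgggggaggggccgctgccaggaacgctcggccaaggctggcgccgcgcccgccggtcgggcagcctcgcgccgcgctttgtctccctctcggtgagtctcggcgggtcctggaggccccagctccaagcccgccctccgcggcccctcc
Capitals mark TTCNNNGAA, the STAT motif, in Cish and Socs3, and in Socs1 an interferon response motif, GAAA and GAAA with 2 bases between them. Each motif was searched on both strands. In Cish, TTCCTGGAA and TTCTTGGAA lay close together at the start used for the window. In Socs1, GAAAGAGAAA and GAAACCGAAA overlapped by their shared bases, 83 and 77 bases before the start. In Socs3, TTCTTAGAA began 154 bases before it. Socs4 held none of these motifs, and none of the 4 promoters held TTC and GAA with 4 bases between them, the spacing preferred by STAT6. Of 32851 promoter windows of the same length, 8.3% held TTCNNNGAA, 6.95% the wider STAT6 spacing and 3.44% the interferon response motif. A match describes the letters and is not evidence of binding.

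Argonaute proteins act through microRNAs, so the 3′ UTRs of 7 members were also searched for the seed matches of 7 microRNAs, which share 5 seeds between them. Socs1 is a textbook target of miR-155, whose mature sequence and site are shown, with the seed (bases 2 to 8) and its match in capitals.
mmu-miR-155-5p: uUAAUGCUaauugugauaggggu
Socs1 3′ UTR site, chr16:10784207-10784213 on the minus strand for the match: tgccgctgtgccgcAGCATTAagtggggg
The match AGCATTA starts at base 20 of the Socs1 3′ UTR and was not found in the UTRs of Cish, Socs2, Socs3, Socs4, Socs5 or Socs7 that were searched. It occurs in 12.1% of 2704 mouse UTRs of similar length. The UTR of Socs6 was not searched. Of the other 4 seeds, Socs1 also held a match to those of let-7a and miR-98, miR-19b and miR-203, and Socs3 a match to those of miR-19b and miR-203. Matches to some of these seeds were found in Socs2, Socs4, Socs5 and Socs7, and none in Cish. Over the members with a match, 12.7% to 54.0% of UTRs of similar length held the same one.

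The first comparison was between days of culture. In wild type, 4 of the 8 members rose from day 7 to day 14, Cish, Socs1, Socs2 and Socs3, while 20.5% of all tested genes changed and 13.2% rose. In knockout the same 4 rose, where 15.5% of genes changed and 10.5% rose. Libraries of the days did not overlap for any of the 4 in either genotype, a separation upwards that 17.2% of tested genes showed in wild type and 13.6% in knockout. Of 6 tested Th2 markers, 4 rose in wild type and 5 in knockout (Il4, Il5, Ccr4, Ccr8 and Il1rl1). Of 8 tested T cell markers, Cd5 fell in wild type and Cd4 and Cd5 in knockout. Markers of other cells moved with the day as well. The 8 markers of Th1, CD8 and NK cells summed to 15.5 to 24.3 CPM at day 7 and 56.0 to 165 CPM at day 14, with Ncr1 at 0 reads, and 2 of 4 tested rose in each genotype. The 8 myeloid markers summed to 1.17 to 7.62 CPM at day 7 and 8.59 to 30.04 CPM at day 14, and 3 of 4 tested rose in wild type and 2 of 4 in knockout. The 8 mast cell and basophil markers went from 30.9 to 64.8 CPM at day 7 to 1.07 to 5.69 CPM at day 14 in wild type, where 3 of 3 tested fell, and from 47.5 to 82.2 CPM to 22.5 to 129.8 CPM in knockout, where 1 rose and 1 fell. Mcpt8, Ms4a2 and Mcpt4 of that list were at 0 reads in every library. The 6 B cell markers summed to 1.03 to 4.21 CPM at day 7 and 0.297 to 0.603 CPM at day 14, and 1 of 2 tested fell in wild type and 2 of 2 in knockout. Of 3 tested regulatory T cell markers, 1 rose and 1 fell in each genotype. The 5 erythroid markers summed to at most 1.42 CPM, and 1 of 2 tested rose in knockout, Hba-a1. Their part in the rise of the family was not tested. Because day 7 and day 14 of the knockout were in different runs, day and run cannot be told apart within that genotype. With run as a term, which borrows the run difference from wild type, Cish, Socs1 and Socs3 kept an edgeR adjusted p of at most 0.0155 and Socs2 did not (log2 difference 2.46 ± 1.08, adjusted p = 0.217). The calls on Th2 and T cell markers in knockout were also lost with run as a term, as was that of Cd5 in wild type.

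Cish (ENSMUSG00000032578, chr9:107296026-107302784) had the largest rise of the family. At day 7 its wild-type libraries read 13.5, 16.2, 21.3 and 15.8 CPM, and the knockout libraries 24.9, 17.0, 18.0 and 44.8 CPM. At day 14 they read 356, 485 and 548 CPM in wild type and 176, 516 and 639 CPM in knockout. Every day 14 library lay above every day 7 library, and the genotypes overlapped on each day, with knockout library 4 highest at day 7 and knockout library 1 lowest at day 14. The log2 rise was 4.79 ± 0.44 (SE) in wild type (27.7-fold, edgeR adjusted p = 9.65e-06) and 4.08 ± 0.43 in knockout (17.0-fold, adjusted p = 6.02e-05). Only 1.44% of tested genes rose more in wild type, and 2.03% in knockout. Cish shares exon bases with Gm17040 and Gm17041 on the other strand, and strandedness of the counting is not given, so reads of these genes could not be separated from its own.

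Socs1 (ENSMUSG00000038037, chr16:10782240-10785536), whose product blocks JAK kinase activity directly, was the most abundant member. Its wild-type libraries held 75.8, 72.0, 87.5 and 70.6 CPM at day 7 and 596, 739 and 1082 CPM at day 14. Its knockout libraries held 106.5, 69.9, 104.5 and 181 CPM at day 7 and 387, 1121 and 1310 CPM at day 14. The spread among knockout libraries was wider than among wild-type libraries on both days, and the genotypes overlapped. The log2 rise was 3.40 ± 0.39 in wild type (edgeR adjusted p = 4.57e-05) and 3.02 ± 0.38 in knockout (adjusted p = 0.000179).

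Socs3 (ENSMUSG00000053113, chr11:117966079-117970047), the inhibitor of receptors that signal through gp130, rose in both genotypes. At day 7 it stood at 26.5, 24.6, 23.7 and 20.3 CPM in wild type and 22.5, 14.9, 14.6 and 12.6 CPM in knockout. At day 14 it stood at 325, 346 and 270.4 CPM in wild type and at 55.96, 228 and 143 CPM in knockout. All 3 knockout libraries at day 14 lay below all 3 wild-type libraries, while at day 7 only knockout library 1 reached into the wild-type range. The log2 rise was 3.72 ± 0.36 in wild type (edgeR adjusted p = 1.64e-05) and 3.14 ± 0.36 in knockout (adjusted p = 0.000108).

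Socs2 (ENSMUSG00000020027, chr10:95385362-95417180), known for restraining growth hormone signalling, was scarce at day 7. It had 8 to 11 reads per library in wild type and 3 to 16 in knockout at day 7, and 24, 33 and 205 reads in wild type and 74, 90 and 175 in knockout at day 14. Wild-type library 3 of day 14 alone accounted for most of the group mean (6.34 CPM against 0.892 and 1.10). The log2 rise was 3.11 ± 0.69 in wild type (edgeR adjusted p = 0.00521) and 3.19 ± 0.68 in knockout (adjusted p = 0.00568). Without library 3 the wild-type rise was 1.64 ± 0.53 (adjusted p = 0.0344).

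**Figure D1:**
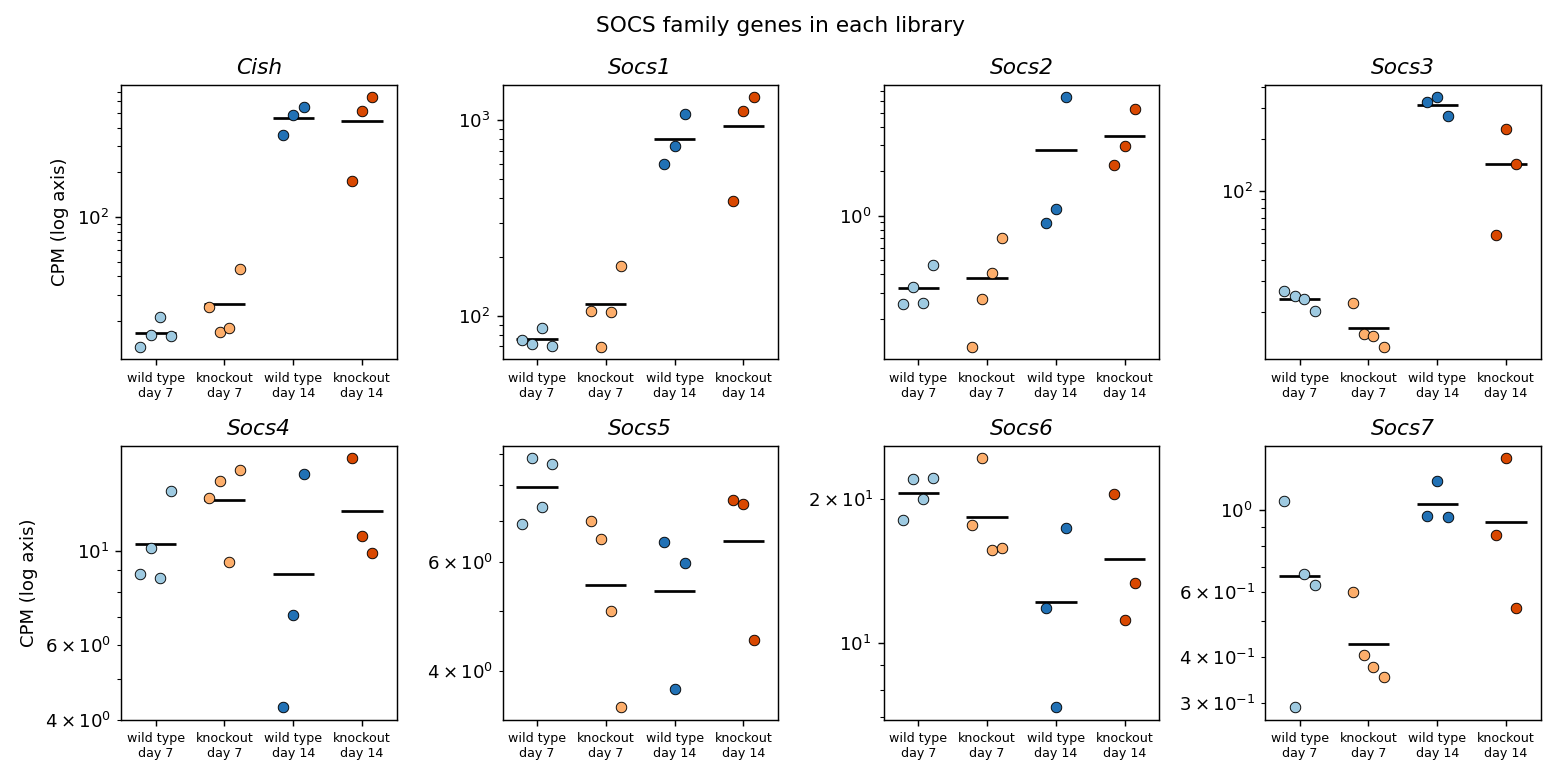
CPM of the 8 family members in each library on a log axis, by group, with a horizontal line at the group mean. Cish, Socs1, Socs2 and Socs3 lie higher at day 14 than at day 7 in every library, whereas Socs4 to Socs7 overlap or differ little.

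The remaining 4 members did not pass the test between days in either genotype. Socs4 and Socs5, best known for regulating the EGF receptor, stood at 4.28 to 16.5 CPM and 3.497 to 8.85 CPM over all 14 libraries. Socs6, a member implicated in receptor tyrosine kinase signalling, stood at 7.35 to 24.3 CPM. Socs7, which binds adaptor proteins of growth factor receptors, had at most 1.38 CPM. In wild type, all day 14 libraries of Socs5 and Socs6 lay below all day 7 libraries, a separation downwards that 13.8% of tested genes showed. Their log2 differences were -0.56 ± 0.31 (edgeR adjusted p = 0.233) and -0.75 ± 0.30 (adjusted p = 0.0976). Without wild-type day 14 library 3, Socs6 passed the test in wild type (-1.10 ± 0.30, adjusted p = 0.0163). That fit called 3539 of all genes, against 2375 with all libraries.

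**Figure D2:**
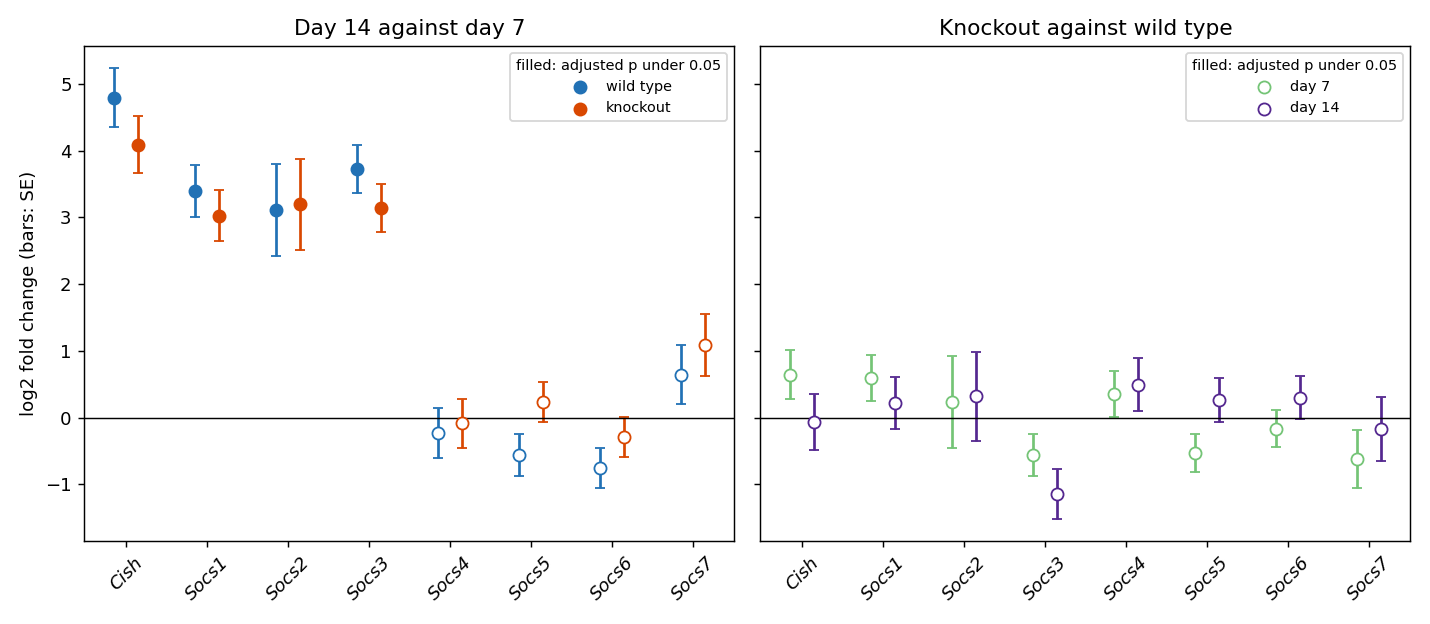
Fitted log2 fold changes with their SE for the 8 members, on the left day 14 against day 7 in each genotype and on the right knockout against wild type on each day. Filled points passed an adjusted p of 0.05, and these are Cish, Socs1, Socs2 and Socs3 between days in both genotypes.

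Levels of different members were compared per length, as the deposited RPKM (reads scaled by coding length and library size). Socs1 had the highest value of the family in all 14 libraries. In wild type at day 7, its mean of 48.8 ± 4.42 (SD, n = 4) was followed by Socs3 (14.3 ± 1.80), Cish (8.79 ± 1.59), Socs6 (5.23 ± 0.483), Socs4 (3.22 ± 0.721) and Socs5 (2.02 ± 0.244), each separated from the next without overlap. Socs2 (0.220 ± 0.0644) and Socs7 (0.155 ± 0.0751) came last and overlapped. In knockout at day 7 the order of means put Cish (13.3 ± 5.89) above Socs3 (9.55 ± 2.64), and their ranges overlapped. By day 14 wild type read 557 ± 197 for Socs1, 263 ± 64.5 for Cish and 202 ± 18.1 for Socs3 (n = 3), and knockout read 640 ± 310, 249 ± 125 and 92.5 ± 57.2. The ranges of Cish and Socs3 overlapped in both. Socs1, Cish and Socs3 together made up 83.2% to 93.4% of the family's summed RPKM in every day 7 library and 96.4% to 99.4% at day 14. The family's sum was 82.8 ± 5.10 (wild type) and 104.6 ± 28.9 (knockout) on day 7, and 1032 ± 251 and 995 ± 477 on day 14.

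The second comparison was knockout against wild type. At day 7, 0 of 8 members passed the edgeR test, where 0.0949% of all genes did, and at day 14 again 0 of 8, where 1.42% did. At an unadjusted p under 0.05 there were 2716 and 2515 genes on these days, and 0 and 1 of the members, the 1 being Socs3. DESeq2 called 0 and 1 members, where it called 482 and 934 genes. Of the 11591 genes, limma-voom with sample weights called 5045 at day 7 and 1930 at day 14, and 2 members on each day. These were Socs3 (-0.67, adjusted p = 0.0166) and Socs5 (-0.60, adjusted p = 0.0142) at day 7 and Socs3 and Socs2 at day 14. Among members the largest difference at day 7 was for Cish (0.65 ± 0.37, edgeR adjusted p = 0.297). In order of size, Socs7 followed at -0.61 ± 0.44 (adjusted p = 0.402) and Socs1 at 0.59 ± 0.34 (adjusted p = 0.302). Socs3 stood at -0.56 ± 0.32 (adjusted p = 0.297) and Socs5 at -0.53 ± 0.28 (adjusted p = 0.27). Without knockout library 4 at day 7, the Cish difference was 0.28 ± 0.34 and the Socs1 difference 0.31 ± 0.34. In that fit Socs3 stood at -0.44 ± 0.35, Socs5 at -0.34 ± 0.28 and Socs7 at -0.52 ± 0.48. At day 14 the Socs3 difference was -1.14 ± 0.37, or 2.21-fold (unadjusted p = 0.00792, edgeR adjusted p = 0.116). It is the only member whose groups did not overlap at day 14 and it lay lower in knockout. Of all tested genes, 5.25% were separated downwards and 9.71% upwards in this way. The wild-type and knockout means were 314 ± 39.1 and 142 ± 86.0 CPM (SD, n = 3 each). Markers of mast cells and basophils moved with the genotype at day 14: the 8 genes summed to 1.07 to 5.69 CPM in wild type and 22.5 to 129.8 CPM in knockout, 2 of 3 tested were called higher (Cpa3 and Kit), and Mcpt8, Ms4a2 and Mcpt4 had 0 reads in every library. Their part in the Socs3 difference was not tested. In bulk RNA, fewer cells of a type and less RNA per cell cannot be told apart.

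The call on Socs3 at day 14 depended on the tool and on single libraries. DESeq2 gave -1.16 (adjusted p = 0.0451) and limma-voom with sample weights -1.22 (adjusted p = 0.0206). In edgeR it passed without wild-type library 3 (-1.24 ± 0.40, adjusted p = 0.0434) and without knockout library 2 (-1.66 ± 0.36, adjusted p = 0.0293). Knockout library 1 was the lowest of its group (55.96 CPM against 228 and 143 CPM). Without it edgeR called 0 members, where it called 289 of all genes. Over all fits without a library the Socs3 difference ran from -1.66 to -0.76, with edgeR adjusted p up to 0.335. Of all alternatives run, 5 called it and 21 did not, with edgeR adjusted p up to 0.464. With run as a term it was not called. Within run 2, which held 3 knockout and 2 wild-type libraries, the mean difference was -1.28. Without wild-type library 3, Socs2 (1.80 ± 0.56, adjusted p = 0.0368) and Socs4 (1.13 ± 0.34, adjusted p = 0.033) also passed, both higher in knockout. That fit called 2640 of all genes, and the fit without knockout library 2 called 605, against 165 with all libraries. Calls on members in these fits thus came with many more calls among all genes. The other members at day 14 had log2 differences from -0.17 for Socs7 to 0.49 for Socs4, with Cish at -0.06 ± 0.42 and Socs1 at 0.22 ± 0.40. The test of whether the genotype difference changed between days called 0 of 8 members, where 0.0863% of genes passed, and the smallest adjusted p was 0.728, for Socs5 (0.79 ± 0.43). Of all tested genes, 924 had an unadjusted p under 0.05 in this test. DESeq2 and limma-voom also called 0 members in it.

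Ratios between members within a library do not depend on library scaling. The RPKM ratio of Socs1 to Socs3 was 3.04, 3.10, 3.92 and 3.69 in the wild-type libraries at day 7 and 5.03, 4.97, 7.61 and 15.2 in the knockout libraries. At day 14 it was 1.95, 2.27 and 4.25 in wild type and 7.34, 5.22 and 9.75 in knockout. The knockout libraries lay above the wild-type libraries on each day. The pair was picked after its values were seen, so these ratios are a description with no test. Socs3 made up 15.6% to 19.7% of the family's summed RPKM in wild type and 4.84% to 12.8% in knockout at day 7, and 14.1% to 25.4% and 6.76% to 12.1% at day 14. The share of Cish was 8.79% to 12.3% in wild type and 10.2% to 15.0% in knockout at day 7, and 24.3% to 27.1% and 23.9% to 26.5% at day 14.

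**Figure D3:**
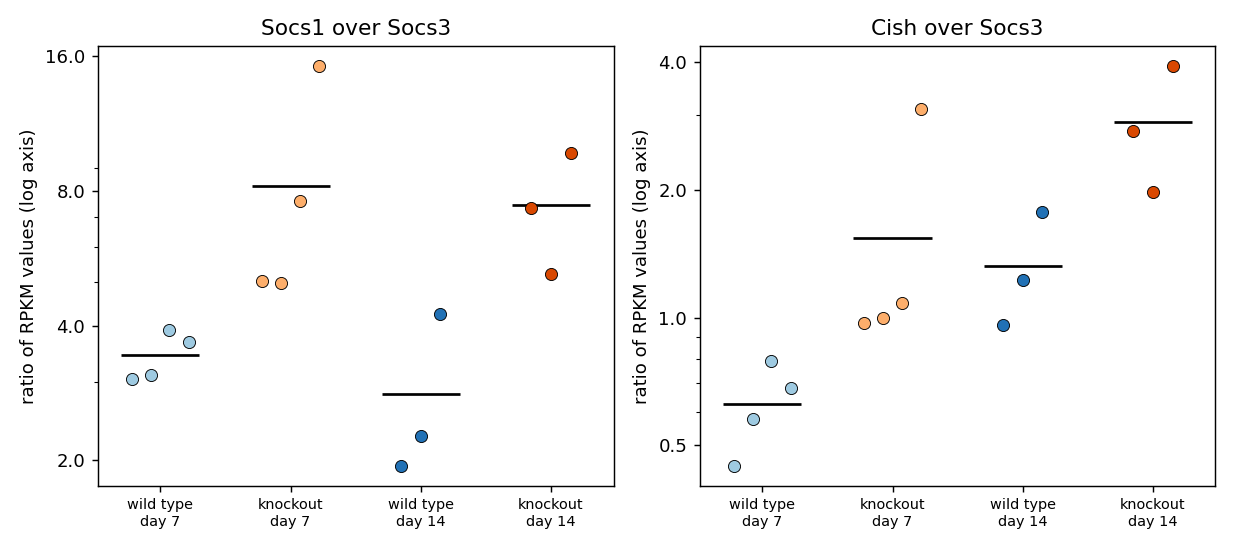
Ratios of deposited RPKM values of Socs1 and Cish to Socs3 in each library on log axes, with the mean of each group as a line. For Socs1 over Socs3 all knockout libraries (4.97 to 15.2 at day 7, 5.22 to 9.75 at day 14) lie above the wild-type libraries of the same day.

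The upstream kinases and factors were read from lists of JAK-STAT genes. Between days, 20.5% of all genes were called in wild type and 15.5% in knockout. Of 11 JAK and STAT genes, 3 rose and 1 fell between days in wild type (Jak3 by 1.91 ± 0.31, edgeR adjusted p = 0.00063, Stat2 by 1.21 ± 0.33, Stat3 by 0.60 ± 0.18, and Jak1 fell by 1.54 on the log2 scale). The median over the list was 0.05, against 0.00 over all genes. Leaving out single libraries lost the call for Stat3 in 6 of 14 fits (those without any 1 of the wild-type libraries other than library 3 of day 14), for Jak1 in 2 (without wild-type library 1 or 2 of day 14) and for Stat2 in 1 (without wild-type library 1 of day 7), and the replicate block lost that for Stat3. In knockout 1 rose, Jak3, and 1 fell, Stat5b, and both calls were lost with run as a term. The Jak3 call was also lost without knockout library 2 of day 14 and the Stat5b call without library 3. Between genotypes the list's median was -0.46 at day 7 and -0.80 at day 14, against -0.01 and 0.01 over all genes. On each day 2 of 11 lay higher in knockout. At an unadjusted p under 0.05 there were 5 and 7, against 2716 and 2515 of all genes. At day 7 edgeR called 0, DESeq2 0 and limma-voom 9, where they called 11, 482 and 5045 of all genes. At day 14 edgeR called 2 of 11 lower, where 1.42% of genes were called. These were Stat5a (-1.27 ± 0.28, adjusted p = 0.0398) and Stat5b (-0.99 ± 0.23, adjusted p = 0.0447), textbook regulators of Cish. Their mean levels were 142 and 426 CPM in wild type and 58.9 and 214 CPM in knockout at day 14. Leaving out single libraries lost the call for Stat5a in 10 of 14 fits and for Stat5b in 11 of 14. Both calls were also lost with run as a term and in the fit of only the compared libraries, which called 0 of all genes. The replicate block lost that for Stat5b as well.

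Receptor chains were counted in the same way. Of all 11591 genes, 1525 rose and 850 fell in wild type, and 1222 rose and 570 fell in knockout. With run as a term, 263 rose in knockout. Of 21 tested cytokine receptor chains, 8 rose and 2 fell in wild type and 6 rose in knockout (3 with run as a term), including Il2rb, the signalling chain of the interleukin-2 receptor (3.26 ± 0.43 and 3.35 ± 0.43). At day 14, Il4ra, the interleukin-4 receptor chain, was the 1 receptor lower in knockout (-1.46 ± 0.32, edgeR adjusted p = 0.0369), a call lost in 10 of 14 fits without a library. Of the 10 ubiquitin ligase partners of the SOCS box, 0 passed the edgeR test in each of the 5 comparisons. At an unadjusted p under 0.05 there were 4 at day 7 and 2 at day 14 between genotypes, against 2716 and 2515 of all genes. Rbx1 (0.87 ± 0.26) and Elob (0.73 ± 0.23) were foremost at day 7. On that day DESeq2 called 1 partner and limma-voom 6, against 482 and 5045 of all genes. Of 16 other negative regulators, 2 fell in wild type between days, Cblb and Ptpn6, and 1 fell in knockout, Dusp2. The Ptpn6 call was lost in 4 of 14 fits without a library (wild-type libraries 3 and 4 of day 7, 2 and 3 of day 14), with upper quartile factors, with the replicate block and with run as a term. The Dusp2 call was lost with run as a term.

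Textbook STAT target genes outside the family were counted too. Over all 11591 genes, 13.2% rose in wild type and 10.5% in knockout between days. With run as a term, 1253 and 263 of all genes rose. Of 16 STAT5 targets, 9 rose in wild type and 10 in knockout between days, with medians of 1.01 and 0.93. With run as a term, 7 rose in wild type and 1 in knockout, Gzmb. Leaving out single libraries lost the call for Lta in wild type in 10 of 14 fits and that for Myc in knockout in 11. Of 12 tested STAT6 targets, 11 and 7 rose, and with run as a term 11 and 0. At day 14 Nfil3, Il4ra and Epas1 were lower in knockout, and the call for Epas1, like that for Il4ra, was lost in 10 of 14 fits without a library and with run as a term. Of 8 STAT3 targets, 6 and 2 rose, and the same numbers with run as a term.

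Other tested genes were ranked by the root mean square difference of centred log2 CPM over the 14 libraries, as a description of likeness. The genes nearest to Socs1 were Il2rb (0.28), Stc2 (0.32) and Pmepa1 (0.35), where Socs1 itself varied by 1.64 around its mean. Nearest to Cish were Adora2b and Psrc1 (0.42 each) and Eepd1 (0.47), where Cish varied by 2.24. Nearest to Socs3 were Hlx (0.43), Il12rb1 (0.46) and Plcd1 (0.46), where Socs3 varied by 1.78. At day 14 these 3 were also lower in every knockout library than in every wild-type library, with Plcd1 at -1.51 ± 0.24 (edgeR adjusted p = 0.00823), Hlx at -2.01 ± 0.51 (adjusted p = 0.063) and Il12rb1 at -1.10 ± 0.28 (adjusted p = 0.0646), values that likeness to Socs3 already favours.

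**Figure D4:**
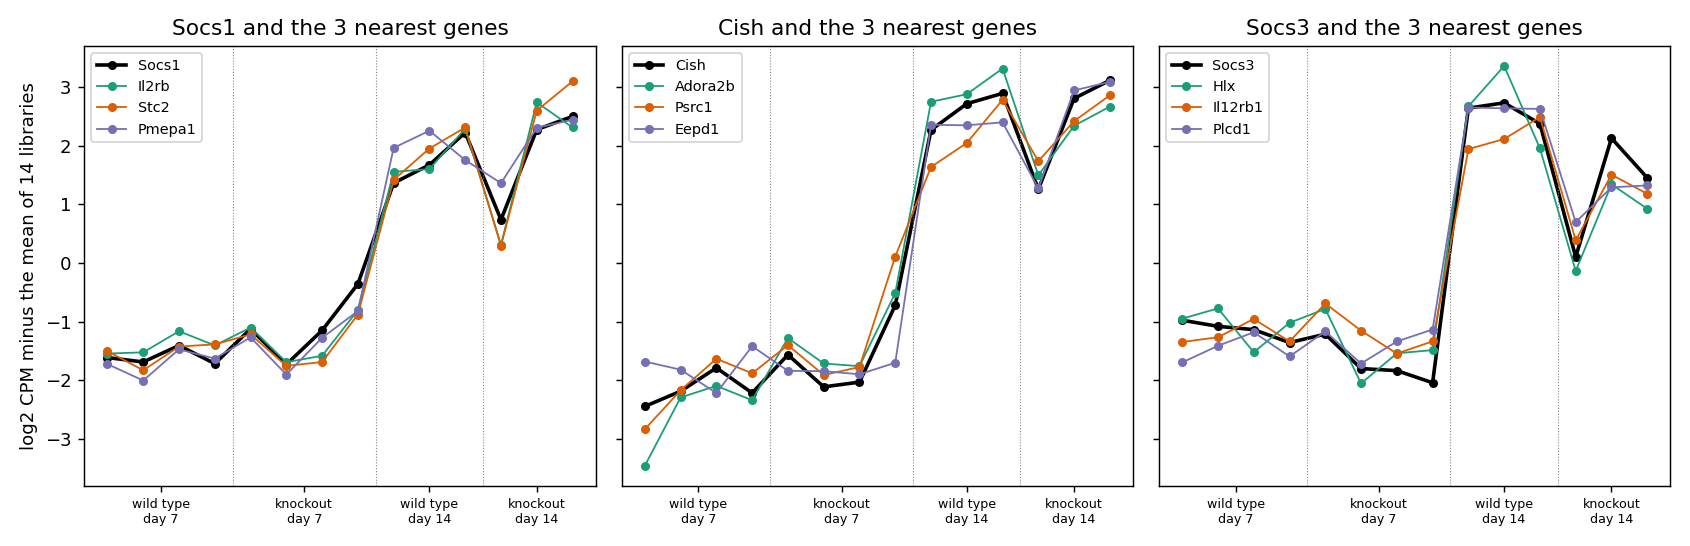
Centred log2 CPM of Socs1, Cish and Socs3 with the 3 genes nearest to each, over 14 libraries grouped by genotype and day. Lines only join the libraries, which have no order within a group, and knockout library 1 at day 14 is the lowest of its group for Socs1, Cish and Socs3.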

How the data were processed

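RNA of 14 libraries was sequenced in paired ends. GSNAP (2013-11-01) was the aligner and GRCm38 the genome build, per the submitters' processing notes. Not given in the sources used here are the counting tool, its annotation and its strandedness. The authors deposited a whole-number count and an RPKM value per gene and library, per the file headers, and the gene width that goes with them was a multiple of 3 for 86.7% of genes, so it is a coding length. Coordinates come from GENCODE release M21.

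Members and gene lists were chosen with earlier results of these data known. Groups come from the sample titles. Genes passing filterByExpr (11591) were scaled by TMM and fitted on all 14 libraries with edgeR 4.0.16 (R 4.3.3), using the robust quasi-likelihood test with 1 mean per group (common biological coefficient of variation 0.354). Benjamini-Hochberg adjustment covered all tested genes, with a threshold of 0.05. A fold change's SE is its size over the root of the F statistic. Shares and ratios used the deposited RPKM. Named genes are all members, Ago1, the called members of each list (up to 6 with the smallest adjusted p) and the 3 genes most like each member with a mean of at least 5 CPM, without predicted and Y-linked genes. Not every gene or list named by that rule is reported here.

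Alternatives were other scaling and filters, fits of the compared libraries only, DESeq2 1.42.0, limma-voom (limma 3.58.1) with sample weights, replicate number as a block, run as a term, an offset for GC content and length, and leaving out each library. Leaving out both libraries that stood apart was added after seeing the data. The fitting step was tested on simulated counts.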

Additional observations from a re-analysis of the deposited data

How the results depend on the processing

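The rises of Cish, Socs1 and Socs3 between days were called in both genotypes under all alternatives run, and that of Socs2 was lost in knockout only with run as a term. Depth limits Socs2 and Socs7, which had as few as 3 and 8 reads in a library. Without replication of the runs across the knockout days, day and run cannot be told apart there.

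Counts of called genes moved with the tool, the run term and single libraries. At day 7, knockout against wild type gave 11 genes, 482 with DESeq2 and 5045 (2 members, Socs3 and Socs5) with limma-voom. At day 14 it gave 165 genes, 248 with raw library totals, 0 in a fit of only the compared libraries, 934 (1 member) with DESeq2, 1930 (2 members) with limma-voom, 79 with run as a term, 539 with the GC and length offset, and 2998 (3 members) without both libraries that stood apart. The interaction gave 10 genes, 157 with DESeq2, 471 with limma-voom, 1 with run, 78 with the offset and 327 without both libraries. Day 14 against day 7 gave 2375 genes in wild type, 4581 with limma-voom, 3842 with the offset and 3799 without both libraries, and 1792 in knockout, 2706 with limma-voom, 370 with run and 3363 with the offset. Leaving out 1 library gave 42 to 2640 genes and 0 to 3 members at day 14, 1 to 380 genes in the interaction, and 1061 to 2420 genes in knockout over time. The highest day 14 count came without wild-type library 3. The cause of these changes in count was not tested.

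Signs turned only for uncalled member differences. Knockout against wild type at day 7 turned for Socs2 with the offset (-0.24) and without both libraries (-0.20), and over single libraries it ran from -0.19 to 0.51. At day 14 Cish turned with limma-voom (0.20), with run (0.024) and without both libraries (0.079), and ran from -0.42 to 0.32 over single libraries. Socs7 turned with the offset (0.10) and ran from -0.57 to 0.10, Socs1 from -0.10 to 0.59, and Socs2 from -0.11 to 1.80. In the interaction, Socs2 turned with upper quartile factors (-0.021) and with run (-0.20) and ran from -0.35 to 1.56, Socs1 turned with limma-voom (0.13) and without both libraries (0.20), and Socs4 turned with the offset (-0.23) and ran from -0.19 to 0.78. Between days, Socs4 turned in wild type with the offset (0.057) and ran from -0.87 to 0.10, and in knockout with limma-voom (0.070) and ran from -0.35 to 0.051.

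Whether replicate numbers pair the samples is not known from the labels. Between genotypes, same-numbered libraries correlated from -0.12 to 0.42 at day 7 and from 0.05 to 0.35 at day 14. The same number was the best match for wild-type libraries 2 and 4 at day 7 and 1 and 2 at day 14. Another number matched the rest better, so these correlations do not settle the pairing. With the replicate block, 15 genes were called at day 7, 236 at day 14, 7 in the interaction, 2221 in wild type and 1607 in knockout over time, with 0, 0, 0, 4 and 4 members. The block turned the sign of the uncalled Socs4 difference in knockout (0.036).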
